A study of Homo sapiens with 6 samples.

Results

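Kinesins are microtubule motors, and the kinesin family was taken here as every gene whose symbol is KIF followed by a number and at most a letter A to C, together with KIFC1, KIFC2 and KIFC3. The rule matched 40 of the 21625 genes in the table, and it used names only, not measured values. By known role, 13 of them were placed in a mitotic class, 16 in a transport class, 6 in a class of cilium and signalling motors, and 5 in a class of other motors. The classes were set with earlier results of these data known. KIF2B and KIF19, which the rule would also take, had no row under these symbols in the table. CENPE, a kinetochore kinesin whose symbol is outside the pattern, is given with the partners of the mitotic motors.

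The libraries came from CHL-1 cells, an established human melanoma line that carries an EWSR1::CREM fusion gene. CREM is a transcription factor that binds cAMP response elements, and the fusion joins its DNA-binding part to a piece of EWSR1. In the CREM siRNA group the cells were transfected with 50 nM of a siRNA pool against the DNA-binding domain of CREM. In the control siRNA group they received a mix of non-targeting siRNAs. The headers of the RPKM columns carry the word serum in both groups, which the sample labels do not explain. The methods give medium with fetal bovine serum for all cell lines. RNA was taken after 48 h, and mRNA was sequenced in 3 libraries per group. Both groups carry the fusion, and the siRNA pool lowers wild-type CREM as well as EWSR1::CREM, so that loss of either cannot be told apart here. The methods speak of triplicate experiments, but the labels do not say whether equal replicate numbers share a culture or day, so that p-values measure only the spread between these libraries.

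Kinesins use ATP to move along microtubules or to take them apart at their ends. Mitotic kinesins build the bipolar spindle, move chromosomes and cut the daughter cells apart, and in cycling cells most of their transcripts accumulate in G2 and mitosis. Transport kinesins carry vesicles, organelles and RNA, mostly toward the cell periphery, and are also used by cells that do not divide. Many promoters of G2 and mitosis genes hold a cell cycle genes homology region (CHR), a short element read by the DREAM and MuvB complexes, near a CCAAT box that is bound by NF-Y. CREM and its relatives bind the cAMP response element (CRE), whose full palindrome is TGACGTCA.

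To set sequences beside the classes, the promoters of 7 kinesins that the results below turn on are printed here. They comprise 5 mitotic motors, the transport motor KIF5C that fell as much as they did, and the transport motor KIF13A that rose. The promoters of KIF2C and KIF1A, which fell as well, were also extracted but are not printed. Each line gives the 150 bases before the RefSeq transcription start on GRCh38.p14, 5′ to 3′ on the strand of the gene. Capitals mark each match to a CHR, a CCAAT box or the full CRE, read on either strand. A CHR was spelled TTTGAA, with TTCGAA as its variant, and a CCAAT box on the other strand reads ATTGG.
KIF11 (spindle bipolarity, chr10:92592980-92593129, + strand): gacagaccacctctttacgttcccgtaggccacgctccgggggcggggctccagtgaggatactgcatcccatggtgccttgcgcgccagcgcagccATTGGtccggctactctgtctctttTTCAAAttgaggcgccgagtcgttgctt
KIF15 (spindle bipolarity, chr3:44761644-44761793, + strand): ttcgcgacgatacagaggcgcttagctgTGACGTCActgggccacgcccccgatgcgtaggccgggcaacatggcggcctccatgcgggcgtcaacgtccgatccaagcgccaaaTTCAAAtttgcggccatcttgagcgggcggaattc
KIF22 (chromosome arms, chr16:29790601-29790750, + strand, the upstream of its RefSeq starts): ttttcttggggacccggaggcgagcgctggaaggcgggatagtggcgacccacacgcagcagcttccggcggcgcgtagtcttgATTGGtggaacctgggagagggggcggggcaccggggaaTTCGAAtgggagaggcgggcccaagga
KIF23 (cytokinesis, chr15:69414199-69414348, + strand): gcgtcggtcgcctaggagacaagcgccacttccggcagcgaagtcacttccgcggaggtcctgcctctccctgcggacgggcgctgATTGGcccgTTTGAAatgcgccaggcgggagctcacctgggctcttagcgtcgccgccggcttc
KIF20A (cytokinesis, chr5:138178962-138179111, + strand): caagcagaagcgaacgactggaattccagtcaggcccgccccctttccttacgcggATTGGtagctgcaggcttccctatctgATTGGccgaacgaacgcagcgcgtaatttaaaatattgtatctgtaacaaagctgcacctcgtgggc
KIF5C (transport, chr2:148875077-148875226, + strand, the upstream of its RefSeq starts): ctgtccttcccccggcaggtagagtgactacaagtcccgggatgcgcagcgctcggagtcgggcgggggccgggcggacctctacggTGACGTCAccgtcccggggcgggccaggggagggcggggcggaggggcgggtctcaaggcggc
KIF13A (transport, chr6:17987636-17987785, − strand): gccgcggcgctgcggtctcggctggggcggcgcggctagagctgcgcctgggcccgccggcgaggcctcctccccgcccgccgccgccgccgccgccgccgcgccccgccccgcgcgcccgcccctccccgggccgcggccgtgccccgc

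KIF11, KIF22 and KIF23 each show a CHR within 60 bases of the start and a CCAAT box a short way upstream of it. In KIF11 the CHR stands at −28 and the CCAAT box at −53, in KIF22 they stand at −27 and −66, and in KIF23 at −55 and −64. KIF20A holds CCAAT boxes at −94 and −67 but no CHR spelled this way. KIF15 has a CHR at −35 and a full CRE at −122, and KIF5C has a full CRE at −63. The printed stretch of KIF13A, which is rich in G and C, holds none of the 3 elements.

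RefSeq promoters, taken as 250 bases before to 50 after a start, were matched for 33 of the 40 kinesins. A CHR was found in 11 of 13 mitotic kinesins (84.6%), with KIF2C and KIF20A as the exceptions, against 1 of 11 matched transport kinesins (9.09%, KIF5B). Such a match was found in 19.5% of all genes with a promoter. A CCAAT box was found in 11 of 13 mitotic kinesins (84.6%), with KIF2C and KIF15 as the exceptions. It was found in 4 of 11 transport kinesins (36.4%) and in 39.7% of all genes. KIF2C, with a log2 fold change of −3.13, thus held neither a CHR nor a CCAAT box. The full CRE was found in KIF15, KIF1A and KIF5C, 3 of 33 kinesins (9.09%), against 2.25% of all genes. A shorter core of the CRE was also scored and was found in 14 of 33 kinesins (42.4%), against 28.4% of all genes. The core was found in 5 of 13 mitotic kinesins (38.5%) and 5 of 11 transport kinesins (45.5%). KIF2C held it at −32 and KIF13A at −198, upstream of the printed stretch. A site for E2F transcription factors was found in KIF15 and KIF25, 2 of 33 kinesins (6.06%), against 2.75% of all genes. These shares describe letters in a window, and binding was not measured.

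Sequencing depth ranged from 23793186 to 29793837 reads in the CREM siRNA libraries and from 17221794 to 24341121 reads in the control siRNA libraries. CREM itself had 2.40, 2.74 and 2.52 RPKM (reads per kilobase of transcript, scaled to library size) in CREM siRNA cells, against 43.4, 46.4 and 46.5 RPKM in control siRNA cells, and thus fell to 5.62% of its control level. Differences were tested with limma on log2(RPKM + 1) over the 12407 genes that averaged at least 1 RPKM, with Benjamini-Hochberg adjustment and a threshold of 0.05. The knockdown moved much of the transcriptome, with 73.4% of these genes past the threshold, 36.6% higher and 36.7% lower. A call on a kinesin is therefore not unusual in itself, and the size of each change is given beside the call. CHL-1 cells kept a melanocytic marker of high level, SOX10, at 471 to 498 RPKM in CREM siRNA libraries and 294 to 316 RPKM in control siRNA libraries. The marker sums of leukocytes (0.487 to 0.710 against 1.54 to 1.69 RPKM) and epithelium (1.14 to 1.66 against 2.49 to 2.84 RPKM) were low and lower in CREM siRNA than in control siRNA libraries. Within the leukocyte list CD68 did not fall (0.565, 0.529 and 0.390 against 0.311, 0.462 and 0.249 RPKM). The endothelial sum was near 0 and higher in CREM siRNA libraries (0.0227 to 0.0371 against 0.00953 to 0.0196 RPKM). The T cell gene CD3E and the endothelial gene PECAM1 were at 0. The part of these markers in the results was not tested. The summed level of 7 melanocytic markers was 922 to 950 RPKM in CREM siRNA libraries and 393 to 430 RPKM in control siRNA libraries. DCT, a pigment enzyme, had 244, 251 and 220 RPKM in CREM siRNA cells, against 25.4, 23.4 and 23.1 RPKM in control siRNA cells. The pigment cell genes PMEL, MLANA and TYR were at or near 0 in replicates 1 and 2 and stood higher in replicate 3 of both groups, with PMEL at 8.35 RPKM in the CREM siRNA library and 1.94 RPKM in the control siRNA library. Without replicate 3 of either group, a comparison added after these values were seen, 25 kinesins were called as in the full set.

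Of the 40 kinesins, 29 passed the filter, 7 more had enough reads for a test on counts, and KIF5A, KIF6, KIF17 and KIF26A had at most 5 reads in any library. Among the 29 kinesins, 25 were called, 4 of them higher and 21 lower in CREM siRNA cells. Scaled by 15 reference genes, the split was 9 higher and 17 lower. KIF14, KIF15, KIF18B, KIF1A and KIF12 averaged less than 1 RPKM in CREM siRNA cells and so passed the filter through their control level, for which reason the counts over tested members describe the family and were not used as evidence for it. On reads recovered from the deposited values, edgeR's quasi-likelihood test took in 36 kinesins and called 30 of them, 5 higher and 25 lower, beside 72.4% called among all 14770 genes it tested. With limma and no filter, 30 of 40 kinesins were called, 5 higher and 25 lower, beside 51.7% of all genes, of which 26.3% were higher and 25.4% lower.

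**Figure D1:**
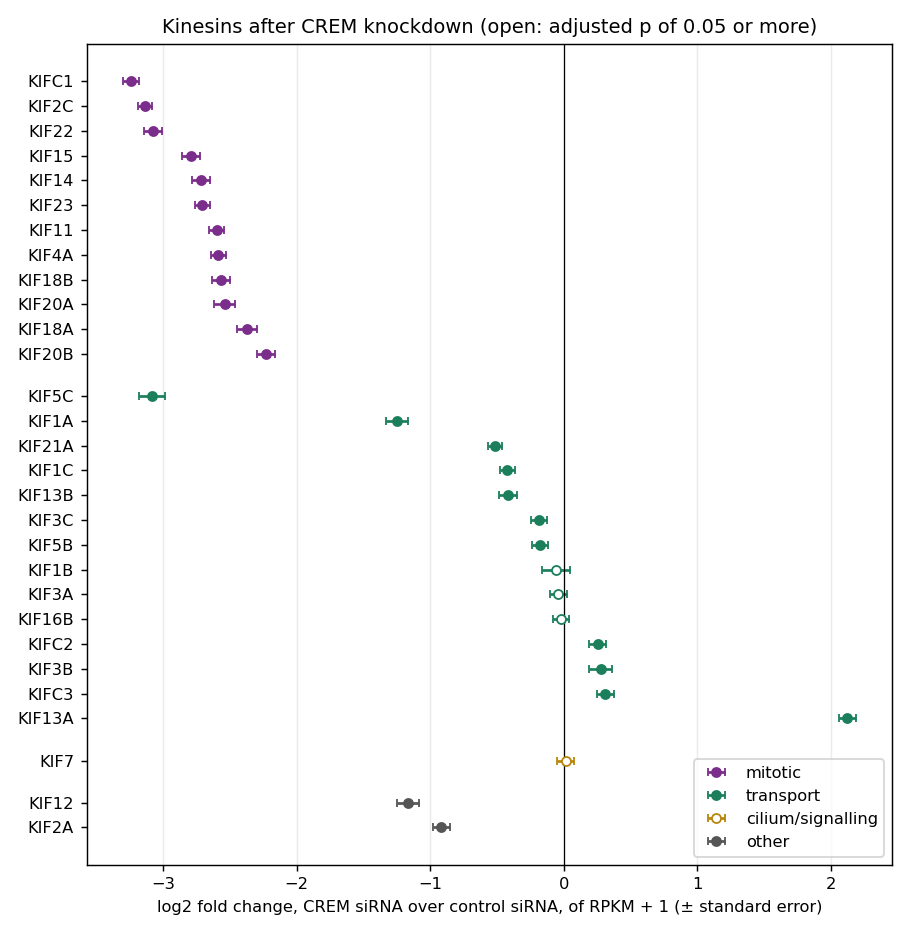
The plot shows the log2 fold change of RPKM + 1, CREM siRNA over control siRNA, for the 29 kinesins tested with limma, by class. Bars are standard errors from 3 libraries per group and open circles mark an adjusted p of 0.05 or more. All 12 tested mitotic kinesins lie between −3.24 and −2.23, whereas the transport kinesins run from −3.09 for KIF5C to 2.13 for KIF13A.

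The mitotic kinesins fell together. All 12 that were tested were lower in CREM siRNA cells by at least 2 on the log2 scale, and what was left ranged from 4.53% of the control level for KIF15 to 13.9% for KIF20A. A fall of that size was seen in 2.68% of all tested genes. In every mitotic kinesin, KIF4B included, each CREM siRNA library lay below each control siRNA library, as did 38.1% of all tested genes, and 76.2% of tested genes had no overlap in either direction. The median log2 fold change was −2.65 over the 12 mitotic kinesins and 0.00 over all genes tested. KIF2A, which also works at spindle poles, was placed among the other motors and had a log2 fold change of −0.92. The statement on all 12 thus holds for the class as drawn here.

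Among the motors that set up the spindle poles, KIFC1 and KIF15 kept less of their control level than KIF11. KIF11, the kinesin-5 motor that slides antiparallel microtubules apart and is the target of Eg5 inhibitors, had 2.25, 2.17 and 2.19 RPKM in CREM siRNA cells, against 18.8, 18.3 and 18.2 RPKM in control siRNA cells. Both groups were tight and far apart, with means of 2.20 ± 0.0423 and 18.4 ± 0.325 RPKM (SD, n = 3 each). Its log2 fold change was −2.60 with a standard error of 0.0528 (limma, adjusted p = 1.75e-11). KIF15, a kinesin-12 motor that can take over from KIF11, had 0.346, 0.483 and 0.350 RPKM in CREM siRNA cells, against 8.83, 8.40 and 8.77 RPKM in control siRNA cells. These levels rest on 53, 61 and 45 reads in the CREM siRNA libraries and 791, 1063 and 1078 reads in the control siRNA libraries. KIF15 kept the smallest share of its control level in the mitotic class. KIFC1, a minus-end motor that bundles poles and clusters extra centrosomes, had 1.57, 1.79 and 1.58 RPKM in CREM siRNA cells, against 23.1, 24.6 and 24.2 RPKM in control siRNA cells. Its log2 fold change of −3.24 was the lowest of any kinesin tested with limma (standard error 0.0590, adjusted p = 9.58e-12), and 0.435% of all tested genes lay lower.

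Kinesins that act on chromosomes and on microtubule ends followed. KIF22, a chromokinesin that pushes chromosome arms toward the spindle equator, had 4.13, 3.48 and 4.2 RPKM in CREM siRNA cells, against 38.8, 40.2 and 42.6 RPKM in control siRNA cells. By mean RPKM it stood at rank 13 among kinesins in CREM siRNA cells and at rank 1 in control siRNA cells, where KIF5B was slightly above it in replicates 1 and 2. KIF2C, a depolymerase that corrects faulty kinetochore attachments, had 2.33, 2.24 and 2.23 RPKM in CREM siRNA cells, against 26.8, 27.8 and 28.5 RPKM in control siRNA cells. The log2 fold changes were −3.08 for KIF22 and −3.13 for KIF2C (limma, adjusted p = 2.73e-11 and 5.64e-12). KIF4A, a chromokinesin that also sets the length of the midzone, had 1.85, 1.63 and 1.78 RPKM in CREM siRNA cells, against 15.7, 15.3 and 15.7 RPKM in control siRNA cells. KIF4B, its near-identical intronless copy, fell below the filter and had 13, 21 and 8 reads in the CREM siRNA libraries, against 108, 121 and 124 reads in the control siRNA libraries. Reads of KIF4A and KIF4B can be assigned to either copy, and the level of KIF4B is therefore uncertain. KIF18A, which dampens chromosome movements at the equator, had 1.30, 0.957 and 1.31 RPKM in CREM siRNA cells, against 10.1, 10.5 and 10.4 RPKM in control siRNA cells. KIF18B, which acts on astral microtubules, kept 5.96% of its control level.

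Cytokinesis motors fell by similar amounts. KIF23, the kinesin of the centralspindlin complex, had 2.31, 2.34 and 2.48 RPKM in CREM siRNA cells, against 20.3, 21.5 and 21.4 RPKM in control siRNA cells. KIF20A, which brings the chromosomal passenger complex to the midzone, had 3.18, 3.17 and 4.02 RPKM in CREM siRNA cells, against 24.1, 23.8 and 26.5 RPKM in control siRNA cells. Replicate 3 was the highest library of KIF20A in either group, and the groups remained far apart. The log2 fold changes of KIF23 and KIF20A were −2.71 and −2.54 (limma, standard errors 0.0549 and 0.0789, adjusted p = 1.75e-11 and 3.28e-10). KIF14, which recruits citron kinase to the midbody, had 0.825, 0.724 and 0.727 RPKM in CREM siRNA cells, against 10.6, 9.98 and 11.2 RPKM in control siRNA cells. KIF20B, which takes part in abscission, had the smallest log2 fold change of the class, −2.23, and kept 12.3% of its control level. The + 1 in the log scale shortens the change of low genes, and on counts the median of the 13 mitotic kinesins was −3.34 (edgeR, all 13 lower, beside 35.6% lower among all genes).

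**Figure D2:**
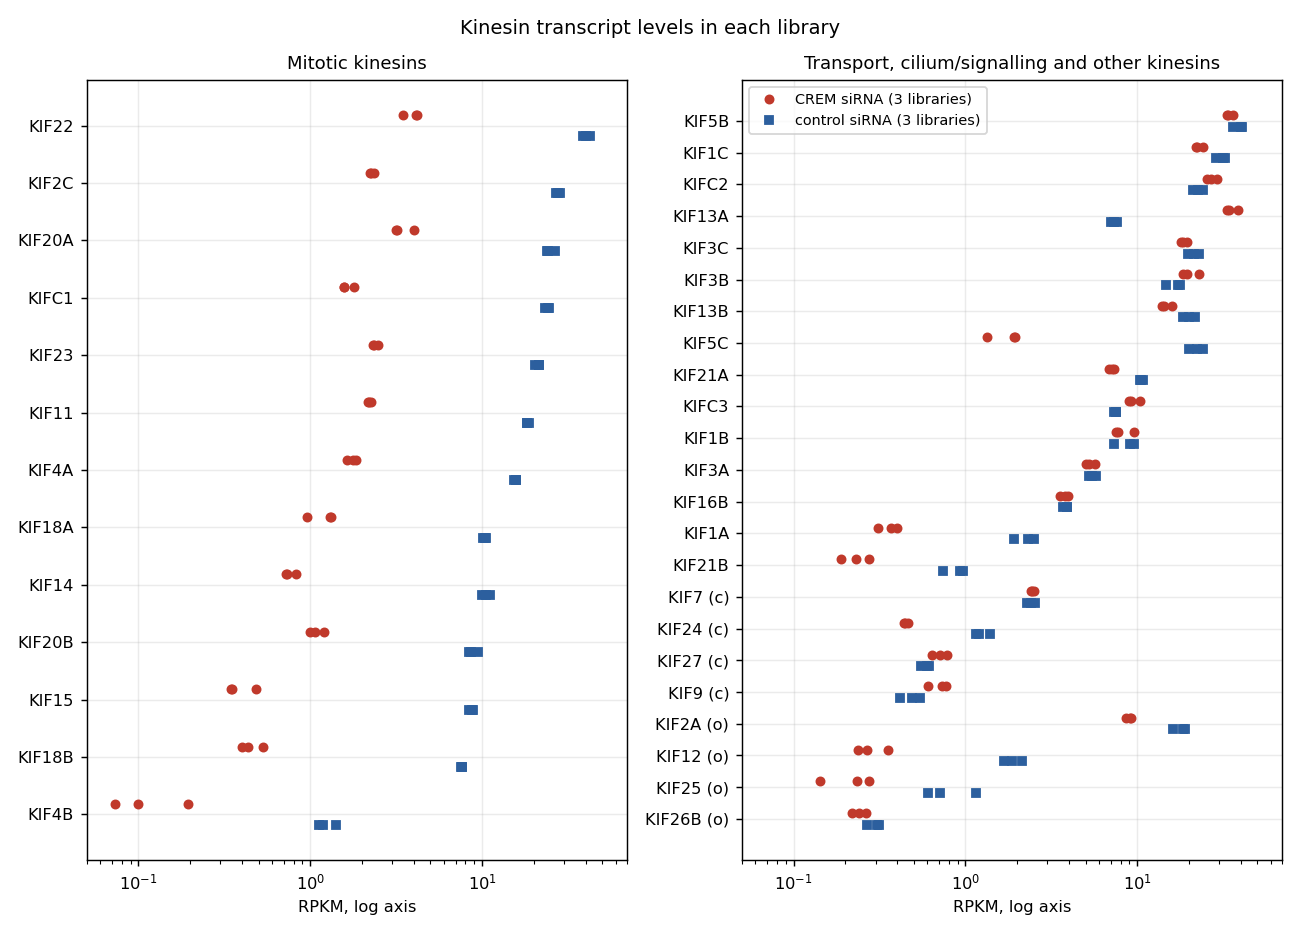
Each point is the level of a kinesin in a library, in RPKM on a log axis, with circles for the 3 CREM siRNA libraries and squares for the 3 control siRNA libraries, and with (c) for cilium and signalling and (o) for other motors. In every mitotic kinesin the groups are separated, while several transport kinesins such as KIF1B, KIF3A and KIF16B overlap and KIF13A lies higher in CREM siRNA cells. KIF5A, KIF6, KIF17 and KIF26A are not drawn.

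The binding partners and regulators of the mitotic kinesins moved with them. All 16 genes of that list were lower in CREM siRNA cells, beside 36.7% of all tested genes and 8.85% that fell by at least 1 on the log2 scale, with a median log2 fold change of −2.75. PRC1, the antiparallel bundler that recruits KIF4A to the midzone, had 4.79, 5.03 and 5.25 RPKM in CREM siRNA cells, against 56.4, 57.5 and 57.7 RPKM in control siRNA cells. AURKB, the kinase that regulates KIF2C and KIF23, had 3.47, 3.04 and 3.78 RPKM in CREM siRNA cells, against 42.8, 48.9 and 50.0 RPKM in control siRNA cells. HMMR, a spindle pole protein that binds TPX2, had a log2 fold change of −3.39. CENPE, the kinetochore kinesin that carries chromosomes to the equator, had 1.54, 1.35 and 1.54 RPKM in CREM siRNA cells, against 11, 10.4 and 11.4 RPKM in control siRNA cells, a log2 fold change of −2.27. The least changed of the 16 was ANLN, a contractile ring scaffold, at −1.63.

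Proliferation markers fell to a like extent. The 3 genes MKI67, TOP2A and PCNA together gave 14 to 16.4 RPKM in CREM siRNA libraries and 171 to 181 RPKM in control siRNA libraries. MKI67, which encodes the Ki-67 antigen, had 1.97, 1.85 and 2.08 RPKM in CREM siRNA cells, against 26.2, 24.1 and 22.7 RPKM in control siRNA cells. For CHL-1 cells after CREM siRNA, the paper reports smaller proportions of cells in S phase and in G2 and mitosis, and fewer Ki67-positive cells. In bulk RNA a smaller number of cells in G2 and mitosis and less kinesin RNA in each such cell cannot be told apart. The part of the proliferation markers in the mitotic kinesin result was not tested.

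The transport kinesins went in several directions. Of 14 tested, 11 were called (78.6%, beside 73.4% of all tested genes), 4 higher and 7 lower, with a median log2 fold change of −0.12 that turned to 0.064 with GAPDH scaling and 0.21 with scaling by 15 reference genes. Only KIF5C, KIF1A and KIF13A among them changed by 1 or more on the log2 scale, while 8.85% of all tested genes fell and 5.76% rose by that much. The summed level of the transport class was 221, 202 and 206 RPKM in CREM siRNA libraries and 229, 223 and 206 RPKM in control siRNA libraries, so that the groups overlapped.

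KIF13A, a kinesin-3 motor that moves recycling endosomes and, in melanocytes, helps to deliver pigment enzymes to melanosomes, was the strongest riser. It had 38.6, 33.1 and 34.1 RPKM in CREM siRNA cells, against 7.30, 7.58 and 7.03 RPKM in control siRNA cells. The lowest CREM siRNA library stood well above the highest control siRNA library, and the means of 35.3 ± 2.91 and 7.30 ± 0.275 RPKM (SD, n = 3 each) differed 4.83-fold. The log2 fold change was 2.13 with a standard error of 0.0632 (limma, adjusted p = 2.34e-10), and 99.1% of all tested genes lay lower. A rise of at least 2 on the log2 scale was seen in 1.06% of tested genes. By mean RPKM KIF13A ranked 1 among kinesins in CREM siRNA cells, against 24 in control siRNA cells, although KIF5B was close to it and slightly above it in CREM siRNA replicate 2. The melanocytic marker sum and DCT, given above, were higher in the same libraries, and their part in the KIF13A result was not tested. KIF13B, its closest relative, did not share this change. It had 15.9, 14 and 14.3 RPKM in CREM siRNA cells, against 21.6, 19.9 and 18.5 RPKM in control siRNA cells (log2 fold change −0.42, adjusted p = 0.000207 by limma).

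Kinesin-1 is the main plus-end carrier of organelles and is assembled from heavy chains of the KIF5 genes. KIF5C, a heavy chain best known from neurons, had 1.95, 1.91 and 1.34 RPKM in CREM siRNA cells, against 24.1, 22.3 and 20.02 RPKM in control siRNA cells. It kept 7.83% of its control level, within the range of the mitotic kinesins, with a log2 fold change of −3.09 (limma, standard error 0.0972, adjusted p = 6.45e-10). KIF5B, the heavy chain that most cells use, had 36.2, 33.2 and 33.7 RPKM in CREM siRNA cells, against 40.6, 40.3 and 36.2 RPKM in control siRNA cells. Its groups touched, and the log2 fold change of −0.18 (limma, adjusted p = 0.0162) turned to 0.0114 with GAPDH scaling and 0.16 with reference-gene scaling. The call was lost when CREM siRNA replicate 2 (adjusted p = 0.0629), control siRNA replicate 1 (0.0565) or control siRNA replicate 2 (0.0685) was left out. KIF5C thus made up 5.11, 5.44 and 3.83% of the summed KIF5 level in CREM siRNA cells and 37.2, 35.6 and 35.5% in control siRNA cells. KIF5A, the heavy chain of neurons, had 0 to 5 reads in CREM siRNA libraries and 3 or 4 reads in control siRNA libraries, too few to compare.

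**Figure D3:**
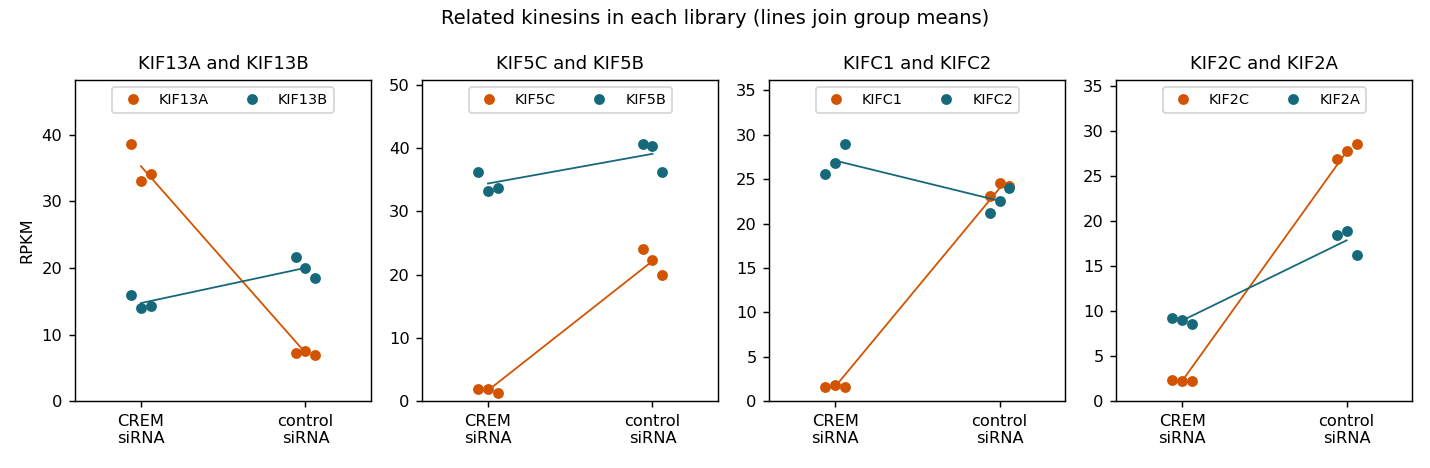
Levels in RPKM of 4 pairs of related kinesins, with a point per library, CREM siRNA left of control siRNA, and lines between group means. KIF13A lies above KIF13B in CREM siRNA cells and below it in control siRNA cells, and KIF5C, KIFC1 and KIF2C are each far below their relative in CREM siRNA cells.

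Pairs of relatives drew apart elsewhere too, and the pairs drawn in that plot were chosen after their values were seen, so that the ratios are given without a test. The ratio of KIF13A to KIF13B was 2.42, 2.37 and 2.39 in CREM siRNA libraries and 0.338, 0.380 and 0.379 in control siRNA libraries. For KIFC1, a mitotic minus-end motor, against KIFC2, a minus-end motor described in mouse neurons, the ratio was 0.0613, 0.0669 and 0.0545 in CREM siRNA libraries and 1.09, 1.09 and 1.01 in control siRNA libraries. The depolymerase KIF2C stood at 0.253, 0.247 and 0.260 times the level of KIF2A in CREM siRNA libraries and at 1.45, 1.47 and 1.76 times in control siRNA libraries. Each of these ratios was formed within a library and does not depend on how libraries are scaled.

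The rest of the kinesin-3 family was mixed. KIF1A, a carrier of synaptic vesicle precursors, had 0.397, 0.308 and 0.369 RPKM in CREM siRNA cells, against 2.49, 2.31 and 1.91 RPKM in control siRNA cells. It fell on both tests, with a log2 fold change of −1.25 by limma (adjusted p = 1.45e-07) and −2.63 by edgeR. KIF1C, which moves vesicles and RNA to cell protrusions, had 24.1, 22.1 and 22.2 RPKM in CREM siRNA cells, against 32.5, 31.6 and 28.7 RPKM in control siRNA cells (log2 fold change −0.42, limma, adjusted p = 6.15e-05). KIF1B, a carrier of mitochondria and vesicles, and KIF16B, a motor of early endosomes, had overlapping groups, with log2 fold changes of −0.06 and −0.02 (limma, standard errors 0.107 and 0.0618, adjusted p = 0.640 and 0.760).

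Heterotrimeric kinesin-2, which serves transport along cilia and in the cytoplasm, pairs KIF3A with KIF3B or KIF3C. KIF3B had 22.8, 19.5 and 18.6 RPKM in CREM siRNA cells, against 17.7, 17.3 and 14.7 RPKM in control siRNA cells, a log2 fold change of 0.28 (limma, adjusted p = 0.0148, and 0.0526 without CREM siRNA replicate 1). KIF3C had 19.4, 18 and 18.5 RPKM in CREM siRNA cells, against 23.0, 21.3 and 19.8 RPKM in control siRNA cells, a log2 fold change of −0.19 that turned to 0.14 with reference-gene scaling (limma, adjusted p = 0.0157 as deposited). That call was lost without CREM siRNA replicate 2 (adjusted p = 0.0601) or without control siRNA replicate 1 (0.0643). KIF3A had 5.68, 5.27 and 5.00 RPKM in CREM siRNA cells, against 5.78, 5.48 and 5.21 RPKM in control siRNA cells, and its groups overlapped (log2 fold change −0.04, limma, adjusted p = 0.590). The sum of the KIF3 genes was 47.9, 42.8 and 42.0 RPKM in CREM siRNA cells and 46.4, 44.1 and 39.7 RPKM in control siRNA cells, again overlapping.

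Among the remaining transport motors, the minus-end kinesins rose a little. KIFC2 had 25.6, 26.8 and 28.9 RPKM in CREM siRNA cells, against 21.1, 22.5 and 24.0 RPKM in control siRNA cells, a log2 fold change of 0.25 (limma, adjusted p = 0.00339). KIFC3, which works at cell junctions and the Golgi, had 8.97, 9.18 and 10.4 RPKM in CREM siRNA cells, against 7.31, 7.57 and 7.50 RPKM in control siRNA cells, a log2 fold change of 0.31 (limma, adjusted p = 0.001). KIF21A, a kinesin-4 motor that restrains microtubule growth at the cell cortex, had 7.13, 7.36 and 6.82 RPKM in CREM siRNA cells, against 10.9, 10.5 and 10.3 RPKM in control siRNA cells, a log2 fold change of −0.51 (limma, adjusted p = 6.94e-06). KIF21B, its relative, was below the filter, and on 81, 46 and 57 reads in CREM siRNA libraries against 166, 225 and 176 reads in control siRNA libraries it had a log2 fold change of −1.90 (edgeR, adjusted p = 2.11e-08).

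**Figure D4:**
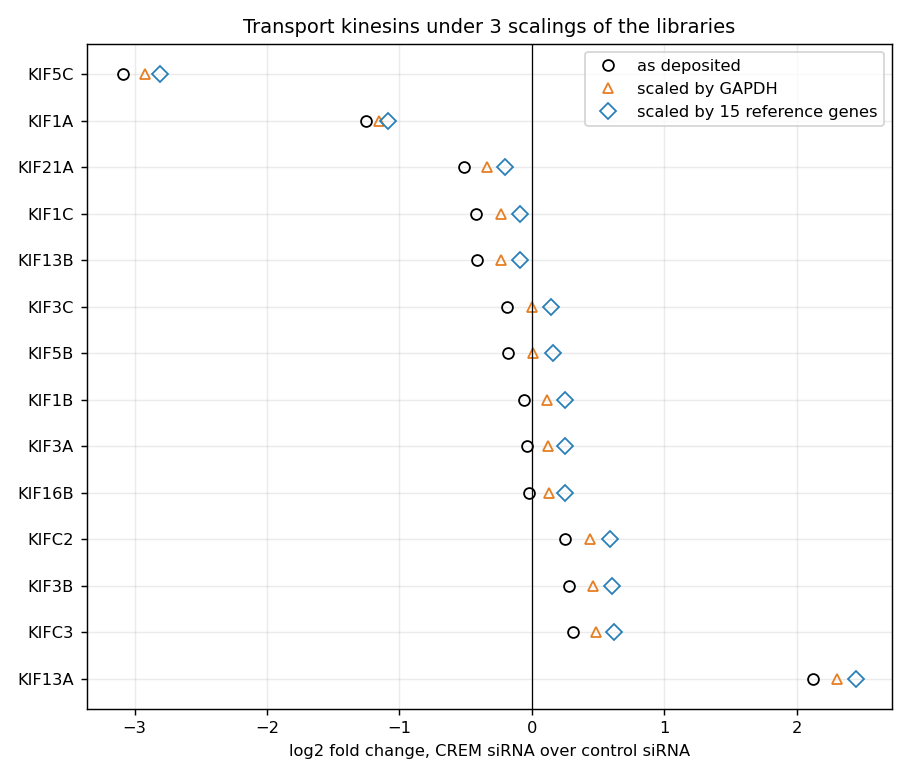
Log2 fold changes, CREM siRNA over control siRNA, of the 14 tested transport kinesins as deposited, after scaling each library by GAPDH and after scaling by 15 reference genes. Scaling shifts every gene to the right, which takes KIF5B, KIF3A, KIF1B and KIF16B past 0 under both scalings and KIF3C under the reference genes, while KIF5C and KIF1A stay well below 0 and KIF13A well above it.

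Small changes in the transport class depended on the scale of the libraries. GAPDH had 686, 692 and 793 RPKM in CREM siRNA cells, against 802, 841 and 838 RPKM in control siRNA cells, and scaling by it moved the median of all genes to 0.17 on the log2 scale. Scaling by 15 reference genes moved it to 0.30. The split of all called genes, 4544 higher and 4558 lower as deposited, became 5788 higher and 2976 lower with GAPDH and 7540 higher and 2553 lower with the reference genes. In the transport class the calls were then 4 higher and 5 lower with GAPDH, and 8 higher and 3 lower with the reference genes. With GAPDH the calls on KIF5B (log2 fold change 0.0114) and KIF3C were lost (limma, adjusted p = 0.918 and 0.988). With the reference genes both were called higher (adjusted p = 0.0246 and 0.0495), whereas KIF1C and KIF13B were no longer called under the reference genes (adjusted p = 0.199 and 0.261 by limma). KIF3A and KIF16B, which were not called as deposited, were called higher under the reference genes, each with a log2 fold change of 0.25. KIF5C, KIF1A, KIF21A, KIF13A, KIFC2, KIF3B, KIFC3 and all 12 tested mitotic kinesins held their direction and call under both scalings. With GAPDH, however, limma gave p-values far smaller than 3 libraries per group can carry. For KIF11 the adjusted p by limma was 1.34e-120 with GAPDH, against 1.75e-11 as deposited. Calls with GAPDH are therefore less certain than those of the other fits.

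The cargo adaptors and regulators of transport kinesins split in the same loose way. Of 20 tested of 21, 9 were higher and 8 lower, beside 36.6% higher and 36.7% lower among all tested genes, with a median log2 fold change of 0.11. TRAK1, which links kinesin-1 to mitochondria, had 18.3, 17.3 and 15.2 RPKM in CREM siRNA cells, against 6.63, 5.96 and 5.81 RPKM in control siRNA cells, a log2 fold change of 1.33. Its relative TRAK2 had a log2 fold change of −0.85. KIFBP, a kinesin-binding protein that keeps several motors off microtubules, rose by 0.64 on the log2 scale. MAP7, a microtubule protein that activates kinesin-1, and KLC3, a kinesin light chain, fell by 1.89 and 1.18 on the log2 scale. MAP7D2 was below the filter and had no test.

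Dynein, the opposing minus-end motor, and its activator dynactin were set beside the kinesins. Of 24 tested of 25 genes, 7 were higher and 11 lower, with a median log2 fold change of −0.06, and the number called is near the 73.4% of all tested genes. NDEL1 and NDE1, paralogous dynein regulators with roles in mitosis and neuronal migration, had log2 fold changes of −1.24 and −0.77, and DYNLT1, a light chain, of −0.52. BICD1, an adaptor that joins dynein to cargo, had 1.56, and the dynactin subunits DCTN4 and ACTR10 had 0.70 and 0.49. The split turned to 10 higher and 3 lower with GAPDH scaling and to 15 higher and 2 lower with the reference genes, and the call on DYNLT1 was lost with the reference genes.

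Cilium and signalling motors were expressed at low levels. KIF7, a regulator of GLI proteins in Hedgehog signalling, had 2.42, 2.50 and 2.43 RPKM in CREM siRNA cells, against 2.30, 2.55 and 2.41 RPKM in control siRNA cells, with overlapping groups (log2 fold change 0.01, standard error 0.0636, limma, adjusted p = 0.851). KIF24, which restrains cilium formation at the mother centriole, had 0.442, 0.447 and 0.463 RPKM in CREM siRNA cells, against 1.16, 1.38 and 1.19 RPKM in control siRNA cells, and fell on counts with a log2 fold change of −1.47 (edgeR, adjusted p = 1.40e-08). Of the 5 motors of this class with a promoter entry, it alone had a CHR in the window (20%, beside 19.5% of all genes). The part of that element in the fall of KIF24 was not tested. KIF9, known from sperm flagella, had 0.729, 0.602 and 0.774 RPKM in CREM siRNA cells, against 0.419, 0.491 and 0.541 RPKM in control siRNA cells. It was called higher by edgeR (log2 fold change 0.53, adjusted p = 0.0115) and not by DESeq2 (adjusted p = 0.0573), beside 36.8% of all genes called higher by edgeR. KIF27, a relative of KIF7, had a log2 fold change of 0.28 (edgeR, adjusted p = 0.108), and KIF6 and KIF17 had at most 4 reads in a library.

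KIF2A, a depolymerase used in interphase, in neurons and at spindle poles, fell to 50.2% of its control level. It had 9.23, 9.09 and 8.58 RPKM in CREM siRNA cells, against 18.5, 18.9 and 16.2 RPKM in control siRNA cells, a log2 fold change of −0.92 (limma, standard error 0.0646, adjusted p = 2.42e-07). KIF12 had 0.236, 0.357 and 0.269 RPKM in CREM siRNA cells, against 1.88, 1.67 and 2.14 RPKM in control siRNA cells, a log2 fold change of −1.17 (limma, adjusted p = 2.26e-07). At these low levels the + 1 in the log scale shortens the change. KIF12 kept 15.1% of its control level, and its log2 fold change on counts was −2.73 (edgeR). KIF25, on 14, 6 and 10 reads in CREM siRNA libraries against 18, 30 and 47 reads in control siRNA libraries, had a log2 fold change of −1.91 (edgeR, adjusted p = 0.000109). KIF26B, at 0.218 to 0.265 RPKM in CREM siRNA cells and 0.266 to 0.315 RPKM in control siRNA cells, did not pass the threshold (edgeR, log2 fold change −0.29, adjusted p = 0.0882). KIF26A had 2 reads in CREM siRNA replicate 1 and none elsewhere.

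**Figure D5:**
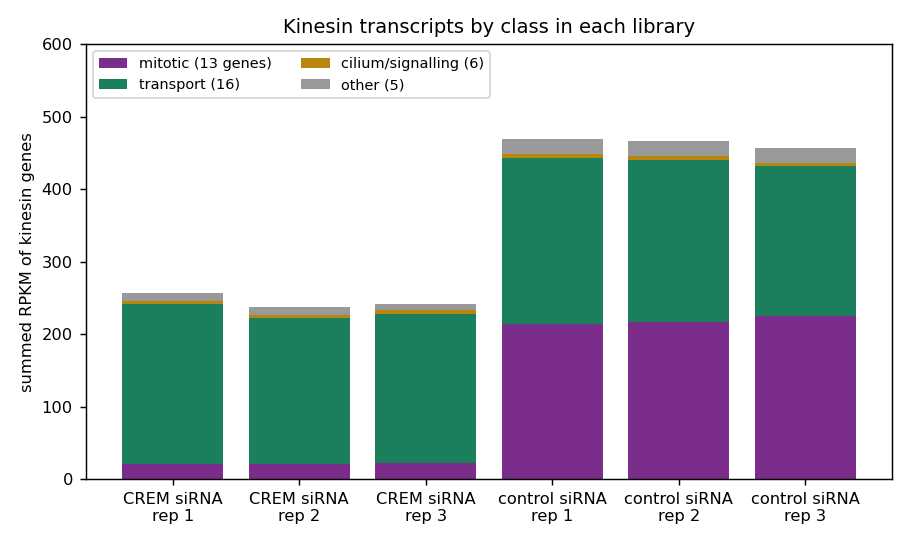
Stacked bars give the summed RPKM of the 40 kinesin genes in each library, CREM siRNA left of control siRNA, coloured by class. The mitotic part is 20.7 to 22.6 RPKM in CREM siRNA libraries and 215 to 226 RPKM in control siRNA libraries, and the transport part differs much less.

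Summed over the family, kinesin RNA came to 257, 237 and 242 RPKM in CREM siRNA libraries and 469, 467 and 456 RPKM in control siRNA libraries. Mitotic kinesins made up 8.44, 8.74 and 9.31% of this sum in CREM siRNA libraries and 45.8, 46.6 and 49.5% in control siRNA libraries. The share of transport kinesins was 86.0, 85.3 and 85.0% in CREM siRNA libraries and 48.7, 47.7 and 45.2% in control siRNA libraries. The ratio of mitotic to transport kinesins, which is free of library scaling, was 0.0982, 0.102 and 0.110 in CREM siRNA libraries, against 0.939, 0.977 and 1.10 in control siRNA libraries. The groups of this ratio were far apart, and with 3 libraries against 3 a two-sided exact permutation test of a value such as this cannot go below p = 0.1. Without KIF13A the transport sum would be 182, 169 and 172 RPKM in CREM siRNA libraries, against 221, 215 and 199 RPKM in control siRNA libraries. Without KIF5C as well it would be 180.0, 167 and 170.4 RPKM in CREM siRNA libraries and 197, 193 and 179 RPKM in control siRNA libraries, where the groups overlap. Of the 10 kinesins with the highest RPKM, 5 were mitotic in control siRNA cells and 0 in CREM siRNA cells.

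Some kinesin genes share ground with neighbours in GENCODE 29 on GRCh38. KIF20A, KIF18A, KIF4A, KIF7, KIF9, KIF24, KIFC2 and KIF2A overlap protein-coding genes on the opposite strand. KIF22, KIF23, KIF2C, KIF5C and KIF1C are among those that overlap a non-coding gene there, and on their own strand KIF15 overlaps TMEM42 and KIF2A overlaps IPO11. The library kit keeps the strand, but no source used here says whether the counting did, and the values of these genes may include reads of the neighbour.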

How the data were processed

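mRNA of CHL-1 cells was sequenced after an Illumina stranded mRNA preparation, in 3 libraries per group. The authors deposited CPM (reads scaled to library size) and RPKM values per gene and library on build hg38, with R 3.6.1 named in the submitters' processing notes. No source used here gives the counter or its use of strand. Reads were recovered from the CPM steps: 100% of values lay within 0.001 of a whole read, and they gave library totals of 17221794 to 29793837 reads. RPKM values give levels, and all error terms cover 3 libraries per group.

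log2(RPKM + 1) of genes averaging at least 1 RPKM was fitted with limma 3.58.1 in R 4.3.3 (trended, robust variance), with Benjamini-Hochberg adjustment at 0.05. edgeR 4.0.16 and DESeq2 1.42.0 were run on the recovered reads as alternatives. Others were pseudocounts of 0.1 and 0.5, no filter or one of 5 RPKM, CPM, 3 scalings, unmoderated variance, a replicate block, leaving out each library and, added after the data were seen, leaving out replicate 3 of both groups. The fits were also run on simulated reads with 200 changed genes and a spread shared by all genes. In the data 9102 genes were called, so that the simulated setting differs and cannot vouch for these calls. Promoters came from RefSeq (GRCh38.p14). No comparison columns of the authors were used. The members and gene lists were chosen with earlier results of these data known. Named genes are all kinesins of the rule, with library values for the 8 most abundant mitotic and transport motors, the 3 largest changes in each direction, KIF11 and tested motors of the other classes, and for partner lists up to 3 called genes at each end. KIF15, KIF14, KIF1A, KIF3A, CENPE and the kinesins tested on counts alone were given library values after these were seen.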

Additional observations from a re-analysis of the deposited data

How the results depend on the processing

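Counts of called genes stayed within 1.5 times for all genes, for the family, for the mitotic and transport classes and for the partner lists under every alternative run. The cilium class (0 of 1 called) had 1 call with DESeq2, 2 with edgeR, 2 without a filter and 1 with reference-gene scaling (KIF7, adjusted p = 0.00281 by limma), and the other motors (2 called) had 1 with the 5 RPKM filter. The mitotic median of −2.65 became −3.13 with CPM, −3.36 with DESeq2, −3.34 with edgeR, −2.71 with the 5 RPKM filter, −2.60 without a filter, −3.22 and −3.00 with pseudocounts of 0.1 and 0.5, −2.50 with GAPDH and −2.39 with reference genes. The transport median of −0.12 became −0.20 with DESeq2, 0.064 with GAPDH and 0.21 with reference genes. KIF5B turned to 0.0114 with GAPDH and 0.16 with reference genes, which also turned KIF3C to 0.14 (its call was lost with GAPDH, adjusted p = 0.988 by limma), KIF16B to 0.25 and KIF3A to 0.25. With unmoderated variance the calls on KIF5B, KIF3C and KIF3B were lost (adjusted p = 0.0696, 0.0669 and 0.104 by limma). The cause of these shifts was not tested. Leaving out libraries gave 23 to 25 called kinesins, a mitotic median of −2.67 to −2.64 and a transport median of −0.197 to −0.0889. All 12 tested mitotic kinesins held direction and call under each alternative that tested them. Of all 29 tested kinesins, 21 stayed called or not called throughout. Among these KIF1B, which was never called, changed sign, to 0.12 with GAPDH and 0.25 with reference genes. The 5 RPKM filter tested 9 mitotic kinesins and 22 in all, without KIF15, KIF18B and KIF20B. The family split of 4 higher and 21 lower became 4 and 19 with GAPDH and 9 and 17 with reference genes.

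The deposited columns number the libraries as experiments in both groups, and no source used here says whether equal numbers mark a shared experiment. The deviations of same-numbered libraries from their group means correlated at 0.27, −0.03 and 0.14, and CREM siRNA replicate 2 correlated best with control siRNA replicate 3, which leaves the pairing unsettled. With a replicate block 25 kinesins were called, no call on a tested kinesin changed, and 9665 of all genes against 9102 without it. Low depth limits KIF5A, KIF6, KIF17 and KIF26A, for which no change was detectable.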
